A study of Mus musculus with 30 samples.

Results

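The genes described here supply energy to working muscle, and all 10 were found by name among the 48709 genes of the deposited table. They are Ckm, Ckmt2, Mb, Pygm, Phka1, Pfkm, Pgam2, Eno3, Ampd1 and Slc2a4 and are grouped by their role in muscle. The cells were C2C12, an established mouse myoblast line that fuses into myotubes when serum is lowered. The differentiation medium carried potassium chromate, a source of hexavalent chromium or Cr(VI), at 0, 2 or 5 µM. Undifferentiated cells at 0 µM formed the day 0 group, and each dose was sampled on days 1, 2 and 4, which gave 10 groups of 3 RNA-seq libraries. Cells of all groups came from this single line, no group carries a genetic change, and there is no Cr(VI)-treated group on day 0. The labels call the replicates biological without saying which cultures or passages they came from, so the p-values below measure the spread between these libraries.

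Contracting muscle spends ATP quickly and keeps several routes to refill it. Creatine kinase rebuilds ATP from phosphocreatine, with Ckm in the cytosol and Ckmt2 in mitochondria. Glycogen phosphorylase (Pygm) releases glucose units from glycogen and is switched on by phosphorylase kinase, whose muscle alpha subunit is Phka1. Phosphofructokinase (Pfkm), phosphoglycerate mutase (Pgam2) and beta-enolase (Eno3) are the muscle forms of glycolytic enzymes. Myoglobin (Mb) stores oxygen, AMP deaminase (Ampd1) removes AMP when ATP runs low, and GLUT4 (Slc2a4) carries glucose into the cell in response to insulin or contraction. Most of these genes have a partner that serves other tissues or growing cells, such as Ckb, Pygb, Phka2, Pfkp, Pgam1, Eno1 and Slc2a1, and muscle cells shift from the partner to the muscle form as they mature.

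The promoters of the 4 members with the largest rises in control cells are shown. These genes start near 0 in myoblasts and rise at each later sampling of control cells, though at different paces. The stretches below are the 250 bases before the RefSeq start site, 5′ to 3′ on the gene's strand, from build GRCm38.p6. Capitals mark E-boxes, the CANNTG sites that myogenic bHLH factors such as MyoD can bind, and matches to the motif named MEF2.
Ckm, chr7:19410844-19411093, + strand: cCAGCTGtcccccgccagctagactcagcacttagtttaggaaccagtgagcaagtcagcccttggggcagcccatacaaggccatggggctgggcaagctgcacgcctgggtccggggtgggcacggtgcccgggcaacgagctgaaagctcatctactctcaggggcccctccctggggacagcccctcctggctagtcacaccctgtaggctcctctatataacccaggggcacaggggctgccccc
Mb, chr15:77022788-77023037, − strand: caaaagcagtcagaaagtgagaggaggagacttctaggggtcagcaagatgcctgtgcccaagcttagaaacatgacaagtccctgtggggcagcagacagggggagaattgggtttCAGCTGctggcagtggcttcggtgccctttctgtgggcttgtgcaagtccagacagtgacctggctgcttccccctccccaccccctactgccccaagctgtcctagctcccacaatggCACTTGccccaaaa
Pygm, chr19:6384158-6384407, + strand: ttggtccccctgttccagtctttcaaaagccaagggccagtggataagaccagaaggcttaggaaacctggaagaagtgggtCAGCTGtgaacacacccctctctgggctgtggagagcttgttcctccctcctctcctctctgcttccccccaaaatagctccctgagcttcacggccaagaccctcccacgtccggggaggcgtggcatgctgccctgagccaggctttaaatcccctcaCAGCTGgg
Pgam2, chr11:5803797-5804046, − strand: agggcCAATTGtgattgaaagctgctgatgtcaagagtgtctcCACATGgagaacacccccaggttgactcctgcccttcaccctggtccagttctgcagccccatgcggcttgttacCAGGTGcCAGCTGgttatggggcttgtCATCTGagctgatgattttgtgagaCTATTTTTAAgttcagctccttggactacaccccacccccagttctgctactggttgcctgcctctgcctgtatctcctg
RefSeq windows were matched for 8 members and numbered 13, since Mb has 3 starts and Pfkm has 4, some of which overlap; Ampd1 and Slc2a4 had none. Both strands were searched, and CAGCTG is one form of CANNTG and so is counted in both. CANNTG was found in 12 of the 13 windows, and 66.2% of 32851 mouse promoter windows of this length hold it. CAGCTG was found in 7 of 13, against 13.0% of all windows, but overlapping windows of Mb hold the same CAGCTG site, which is thus counted more than once. The MEF2 motif was found in 1 window, that of Pgam2, 71 bases before the start, against 2.92% of all windows. In Ckm the E-box lies 244 bases before the start, in Pgam2 the nearest of 5 lies 100 bases before it and in Pygm 3 bases. For Mb it is 9 bases in the window shown and 47 and 160 bases at the other starts. A match is a description of letters in this window and no evidence of binding in these cells.

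Levels are given as scaled CPM, the deposited CPM values, in which each library carries a further scaling factor. A single read stood for 0.038 to 0.0584 of this unit, depending on the library. Sequencing depth was 18.46 to 26.95 M reads per library (median 23 M). The test took in the 12946 genes that reached a level of 1 in 3 or more libraries, and all 10 members were among them. Changes are log2 differences of (scaled CPM + 1) with their standard error from limma, which understate the change of genes at low levels. A gene is called, and said to rise or fall, at a Benjamini-Hochberg adjusted p below 0.05 over all 12946 genes. The myogenic markers Myod1, Des and Myog were read in every group, and the summed level of 6 skeletal muscle lineage markers was 1004 to 5355 scaled CPM. Replicate 1 of 2 µM on day 1 carried adipocyte transcripts, with a summed level of 8 adipocyte markers of 3571 scaled CPM against 22.8 to 125 in the 28 libraries without extra transcripts. Replicate 3 of 5 µM on day 1 carried lung and leukocyte transcripts, with sums of 381 and 315 against at most 0.941 and 1.42 in those 28. Hepatocyte markers summed to at most 0.573 in any library.

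In control cells Ckm, Mb, Pygm and Pgam2 rose from almost nothing to abundant transcripts over 4 days. Eno3, Pfkm and Phka1 were already present in myoblasts, and Ckmt2, Slc2a4 and Ampd1 stayed low. All 10 rose between day 0 and day 4, where 30.3% of all genes tested rose. Their median log2 change was 3.70, against 0.01 over all genes. Together the members took 0.0542 to 0.0556% of the reads on day 0, 0.0558 to 0.0622% on day 1, 0.168 to 0.177% on day 2 and 0.398 to 0.466% on day 4.

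**Figure D1:**
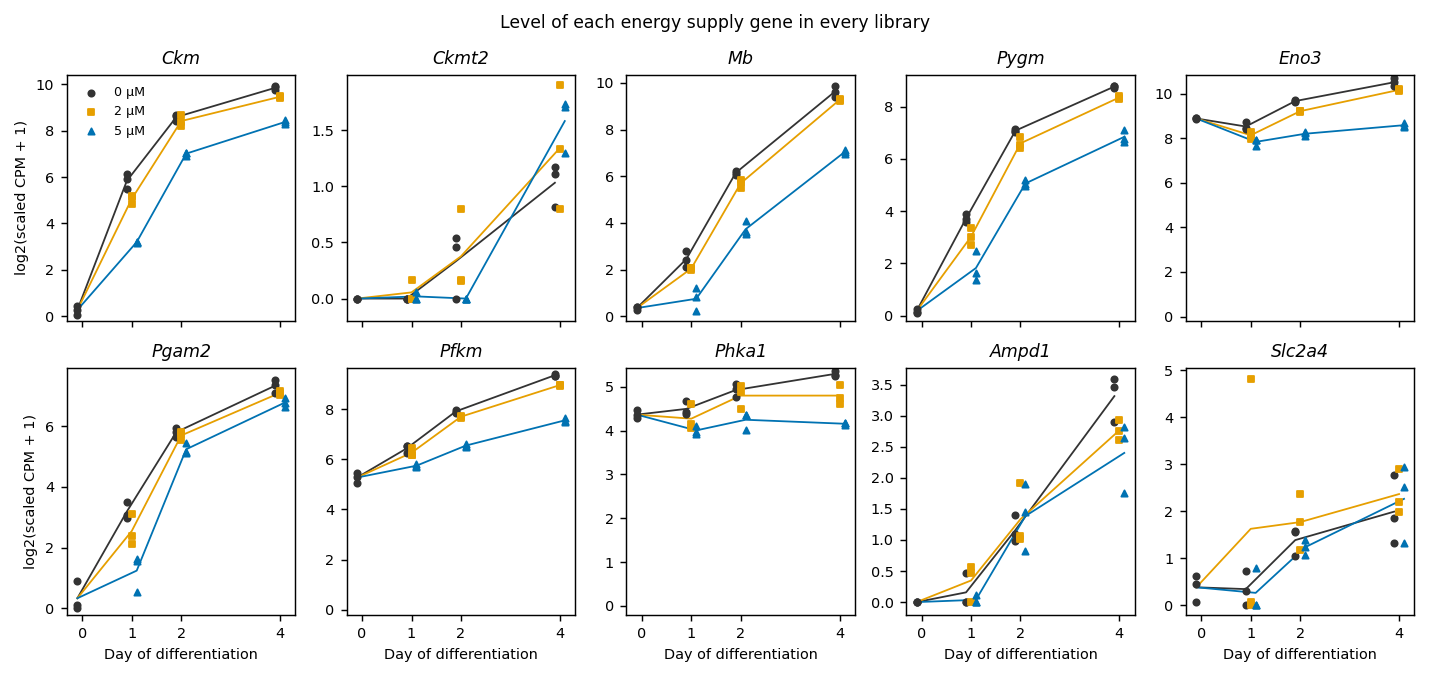
Level of each of the 10 genes in all 30 libraries, as log2(scaled CPM + 1) on the vertical axis, against the day of differentiation. Points are libraries (3 per group; circles 0 µM, squares 2 µM, triangles 5 µM) and lines join group means of the log2 values, with the shared day 0 group drawn once. Ckm, Mb, Pygm, Pfkm, Eno3, Pgam2 and Phka1 at 5 µM lie below control on each day, while Ckmt2 and Slc2a4 stay low and overlap more often.

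Ckm was read at 0.225, 0.379 and 0.0521 scaled CPM in the day 0 libraries, at 59.6, 43.2 and 68.1 on day 1, at 344, 392 and 412 on day 2 and at 851, 935 and 969 on day 4. Each group lies above the one before it without overlap, and the day 4 mean was 4202 times the day 0 mean, which rests on 15 reads. Its log2 change was 5.56 ± 0.13 (SE) from day 0 to 1, 2.75 ± 0.13 from day 1 to 2 and 1.26 ± 0.13 from day 2 to 4 (limma, adjusted p = 5.5e-28, 2.7e-18 and 1.7e-09). Most of the Ckm rise on the log scale thus came on the first day. Ckmt2 stayed near the limit of reading, at 0 in all 6 control libraries of days 0 and 1 and at 1.16, 0.760 and 1.25 scaled CPM on day 4 (log2 change from day 0 of 1.03 ± 0.28, adjusted p = 0.0021).

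Mb came later than Ckm. It stood at 0.315, 0.210 and 0.313 scaled CPM on day 0, at 4.39, 3.36 and 5.97 on day 1, at 66.6, 74.0 and 69.6 on day 2 and at 776, 940.4 and 668 on day 4. The log2 change of Mb was 2.10 ± 0.19 on the first day, 3.70 ± 0.19 on the next and 3.47 ± 0.19 from day 2 to 4 (adjusted p = 1.9e-11, 3.5e-17 and 1.1e-15). Between day 1 and day 4 the mean of Mb increased 174-fold and that of Ckm 16.1-fold.

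Pygm was read at 0.0900, 0.210 and 0.104 scaled CPM on day 0, 11.9, 10.9 and 13.8 on day 1, 128, 142 and 134 on day 2 and 419, 442 and 442 on day 4. Its libraries were close within each day, and the log2 change was 3.54 ± 0.18, 3.36 ± 0.18 and 1.69 ± 0.18 over the 3 intervals (adjusted p = 1.4e-17, 2.4e-16 and 1.0e-08). Phka1 was present from the start, at 18.5, 19.4 and 21.1 on day 0 and 37.2, 37.6 and 40.0 on day 4, a log2 change of 0.93 ± 0.16 (adjusted p = 7.4e-06). None of the single steps of Phka1 passed (adjusted p = 0.53, 0.052 and 0.095).

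Among glycolytic members Pfkm rose at each step, from 43.3, 32.6 and 38.2 scaled CPM on day 0 to 649, 691 and 639.5 on day 4 (log2 change 4.09 ± 0.09, adjusted p = 1.0e-28). Pgam2 went from 0.855, 0.0842 and 0 to 162, 184 and 136 (6.99 ± 0.24, adjusted p = 4.1e-23). Eno3 was the one member that fell on the first day, from 473, 478 and 461 to 349, 416 and 339 (−0.36 ± 0.09, adjusted p = 0.0015). It then rose to 1448, 1662 and 1275 on day 4, 1.62 ± 0.09 above day 0 (adjusted p = 6.6e-17). So at this step 5 members rose, where 25.4% of all genes rose, and 1 fell, where 22.7% fell. From day 1 to day 2, 7 members rose (12.8% of all genes), and from day 2 to day 4, 7 rose (11.7%). Ampd1 was the weakest of those from day 1 to 2 (1.00 ± 0.32, adjusted p = 0.019), and its call was lost without day 1 replicate 2 or 3 (both adjusted p = 0.068) or day 2 replicate 2 (adjusted p = 0.088). Without both extra-transcript libraries, which enter through the shared spread, 8 members rose from day 1 to 2, Slc2a4 being the added one (1.04, adjusted p = 0.035, against 0.30 with all libraries).

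Ampd1 was at 0 in all day 0 libraries and at 11.0, 9.98 and 6.45 scaled CPM on day 4, at least 197 times the floor of 3 reads over the day 0 group (log2 change 3.31 ± 0.32, adjusted p = 4.7e-11). Slc2a4 was at 0.0450, 0.547 and 0.365 on day 0 and at 1.51, 5.88 and 2.65 on day 4, a wide spread for a low gene. Its log2 change of 1.61 ± 0.67 passed narrowly (adjusted p = 0.039). That call was lost without replicate 1, 2 or 3 of day 0 (adjusted p = 0.11, 0.053 and 0.067) or replicate 2 or 3 of day 4 (adjusted p = 0.17 and 0.062).

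Per kilobase of the longest annotated coding transcript, the order of levels in control cells on day 4 was Eno3 (935 scaled CPM per kb), Mb (719.8), Ckm (335), Pfkm (229), Pgam2 (191), Pygm (151), Phka1 (6.26), Ampd1 (3.14), Slc2a4 (1.32) and Ckmt2 (0.711). Libraries of the neighbours Eno3 and Mb overlapped, as did those of Ampd1 with Slc2a4 and of Slc2a4 with Ckmt2. At 5 µM the order was Eno3 (245), Pgam2 (129.5), Ckm (121), Mb (118), Pfkm (65.4), Pygm (39.9) and Phka1 (2.76), with Slc2a4, Ampd1 and Ckmt2 between 1.36 and 1.71. There Pgam2, Ckm and Mb overlapped, whereas in control Mb and Ckm both stood above Pgam2 in every library. The transcript used in these cells was not measured, so the order is approximate.

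With 5 µM Cr(VI) most members lagged behind control from the first day. Of the 10, 7 fell on day 1, where 9.41% of all genes tested fell, 6 fell on day 2 (13.4% of all genes) and 8 fell on day 4 (28.6% of all genes). The median log2 change of the members was −0.69, −1.02 and −1.30 on days 1, 2 and 4, against a median of −0.01 over all genes on each day. Leaving out both libraries with extra transcripts changed no member's call in these 3 comparisons. Summed skeletal muscle lineage markers were also lower at 5 µM, at 1618 to 1904 against 2841 to 2905 scaled CPM on day 1, 3162 to 3367 against 4484 to 4978 on day 2 and 2432 to 2976 against 4598 to 5355 on day 4. Their part in the result was not tested, and in these bulk samples fewer muscle-forming cells and less RNA per cell cannot be told apart.

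**Figure D2:**
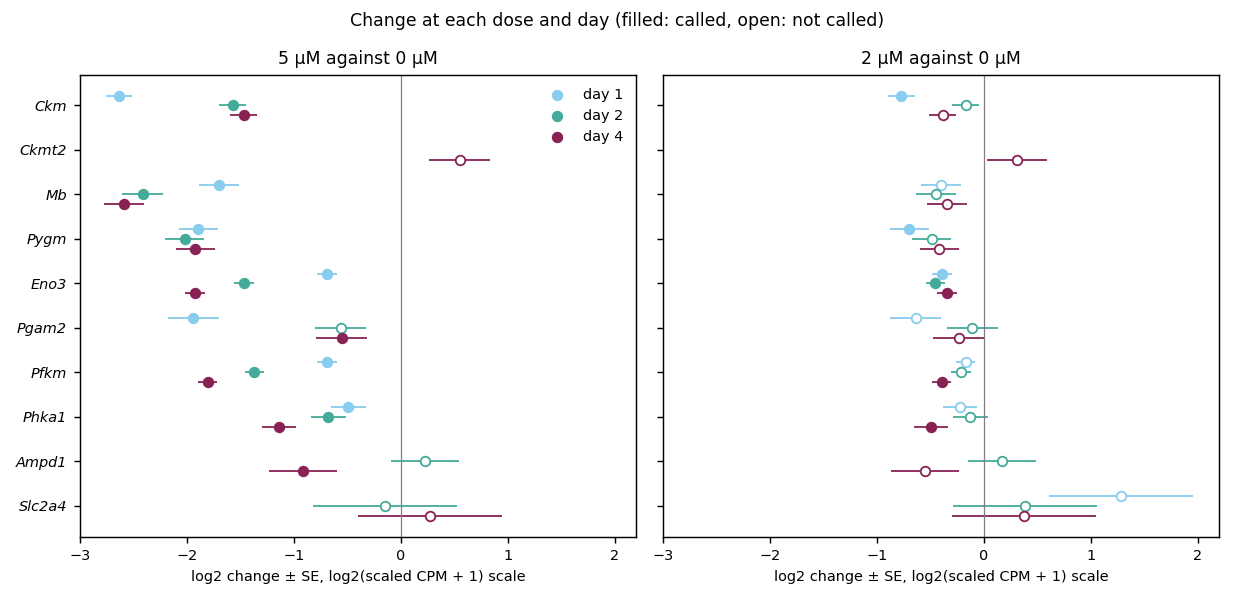
Log2 change (horizontal axis, on the log2(scaled CPM + 1) scale) of each member at 5 µM and at 2 µM against 0 µM on the same day. Points are estimates from 3 libraries per group, bars are 1 SE from limma, filled points passed the test, open points did not, and genes with both means below 1 scaled CPM are left out. At 5 µM Ckm moves towards 0 after day 1 (−2.63 to −1.47), whereas Eno3 and Pfkm move away from it (both −0.69 on day 1, −1.92 and −1.80 on day 4).

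Ckm at 5 µM was read at 8.27, 8.26 and 8.02 scaled CPM on day 1, 120.0, 131 and 132 on day 2 and 349, 329.9 and 313 on day 4. All treated libraries lay below all controls of the same day. These means were 14.4%, 33.4% and 36.0% of control, and the log2 changes were −2.63 ± 0.13, −1.57 ± 0.13 and −1.47 ± 0.13 (adjusted p = 3.0e-17, 8.3e-12 and 6.1e-12). The deficit of Ckm shrank from day 1 to day 2, by 1.06 ± 0.18 on the log2 scale (adjusted p = 1.0e-04), and its further change to day 4 did not pass (0.10 ± 0.18, adjusted p = 0.74). Ckm on day 4 at 5 µM had a mean 0.864 times that of control cells on day 2. In the other members this ratio ran from 0.472 for Eno3 to 7.32 for the low Ckmt2, with 1.86 for Mb and 1.99 for Pgam2.

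Ckmt2 went the other way in value on day 4, at 1.46, 2.27 and 2.34 scaled CPM against 1.16, 0.760 and 1.25. Its 3 treated libraries lay above the controls, on 118 and 65 reads in all, but the difference did not pass (0.55 ± 0.28, adjusted p = 0.099). It passed with quantile normalization (0.81, adjusted p = 0.014) and with no filter on low values (adjusted p = 0.034). On days 1 and 2 both groups had means below 1 scaled CPM, and no log2 change is given for a gene at that level.

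Mb had the lowest share of control of the well-read members on day 4. It was read at 1.32, 0.777 and 0.160 scaled CPM on day 1, 10.5, 11.3 and 15.7 on day 2 and 138, 129.6 and 124 on day 4, against 776, 940.4 and 668 in day 4 controls. The means were 16.5%, 17.9% and 16.4% of control. The mean level itself increased 173-fold between days 1 and 4, against 174-fold in control. The day 1 mean rests on 54 reads, with libraries at 3.51 to 28.9% of control. Its lowest value is that of the library with lung and leukocyte transcripts, so the day 1 share and the 173-fold are uncertain. The log2 change of Mb was −1.70 ± 0.19, −2.41 ± 0.19 and −2.58 ± 0.19 (adjusted p = 2.1e-08, 4.3e-12 and 1.2e-13). The smaller value on day 1 is on a scale with 1 added to levels near 1.

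For glycogen breakdown, Pygm was at 2.13, 1.55 and 4.57 scaled CPM on day 1, 31.5, 35.3 and 30.4 on day 2 and 135, 109 and 100.3 on day 4. That was 22.5%, 24.1% and 26.4% of control with no overlap, and log2 changes of −1.89 ± 0.18, −2.02 ± 0.18 and −1.92 ± 0.18 (adjusted p = 1.3e-09, 1.3e-10 and 7.5e-11). Changes of the Pygm deficit between days did not pass (adjusted p = 0.88 and 0.84). With a pseudocount of 5, the change from day 1 to 2 did pass, as a widening (−0.73, adjusted p = 0.010). The highest of the day 1 values is that of the library with lung and leukocyte transcripts.

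Phka1 hardly moved over time at 5 µM, at 14.2, 14.8 and 16.3 on day 1, 19.6, 15.3 and 19.5 on day 2 and 17.1, 16.4 and 17.1 on day 4, while control cells reached 37.2 to 40.0. Its log2 change was −0.49 ± 0.16, −0.68 ± 0.16 and −1.14 ± 0.16 (adjusted p = 0.037, 0.0017 and 3.1e-07). On day 1 the call was lost without replicate 1 or 3 of control (adjusted p = 0.061 and 0.17) or replicate 1 or 2 of 5 µM (adjusted p = 0.11 and 0.090), and its groups did not overlap.

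Pfkm was read at 51.9, 55.6 and 51.1 scaled CPM on day 1, 89.4, 91.4 and 98.6 on day 2 and 200.4, 177 and 187 on day 4 at 5 µM. Shares of control were 61.4%, 38.5% and 28.5%, so each day the treated cells stood further below control. Log2 changes of Pfkm were −0.69 ± 0.09, −1.37 ± 0.09 and −1.80 ± 0.09 (adjusted p = 7.7e-07, 9.9e-14 and 1.0e-17). The widening itself passed from day 1 to 2 (−0.68 ± 0.13, adjusted p = 5.2e-04) and from day 2 to 4 (−0.44 ± 0.13, adjusted p = 0.012).

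Eno3 followed the same course. Its libraries read 241, 242 and 199.8 on day 1, 271, 312 and 297 on day 2 and 405, 377 and 365 on day 4, and the day 4 values were below the 461 to 478 of undifferentiated cells. Shares of control were 61.9%, 36.2% and 26.2%, with log2 changes of −0.69 ± 0.09, −1.47 ± 0.09 and −1.92 ± 0.09 (adjusted p = 9.2e-07, 2.9e-14 and 2.6e-18). Here too the widening passed at both steps, by −0.77 ± 0.13 (adjusted p = 1.0e-04) and −0.46 ± 0.13 (adjusted p = 0.0088).

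Pgam2, a step between Pfkm and Eno3 in the same pathway, did not share that course. At 5 µM it was at 2.09, 0.450 and 1.97 scaled CPM on day 1, 33.6, 42.2 and 34.7 on day 2 and 121, 107 and 98.5 on day 4. Shares of control were 18.3%, 67.2% and 67.7%, so after day 1 treated cells came nearer to control. The deficit of Pgam2 shrank by 1.38 ± 0.34 from day 1 to 2 (adjusted p = 0.0089), a call lost with a pseudocount of 0.1 (2.02, adjusted p = 0.068) or 5 (0.51, adjusted p = 0.17). Its log2 changes were −1.94 ± 0.24 (adjusted p = 2.2e-07), −0.56 ± 0.24 (adjusted p = 0.088) and −0.55 ± 0.24 (adjusted p = 0.049). The day 2 groups did not overlap, and the day 2 value passed with a pseudocount of 5 (−0.52, adjusted p = 0.0086) and with the compared groups alone (adjusted p = 0.0080). The day 4 call was lost with edgeR (adjusted p = 0.052) and DESeq2 (adjusted p = 0.17). It was also lost without control replicate 1 (adjusted p = 0.099) or 2 (adjusted p = 0.16) and without treated replicate 1 (adjusted p = 0.051), 2 (adjusted p = 0.099) or 3 (adjusted p = 0.14), although the groups did not overlap.

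Ampd1 was called lower on day 4, at 5.23, 2.37 and 6.01 scaled CPM against 11.0, 9.98 and 6.45 (−0.91 ± 0.32, adjusted p = 0.014). The groups stood apart by a small gap, and the call was lost with edgeR on reads (adjusted p = 0.33), with DESeq2 (adjusted p = 0.21) and without control replicate 1 (adjusted p = 0.066) or treated replicate 2 (adjusted p = 0.145). On day 2 the values overlapped (2.71, 0.760 and 1.72 against 0.986, 1.65 and 1.13; adjusted p = 0.68). Slc2a4 showed no difference that passed, with 4.75, 1.50 and 6.71 against 1.51, 5.88 and 2.65 on day 4 (0.27 ± 0.67, adjusted p = 0.75) and 1.62, 1.36 and 1.10 against 1.97, 1.05 and 1.92 on day 2 (−0.15 ± 0.67, adjusted p = 0.91). The SE of 0.67 is taken from the spread in all groups, which include the 2 µM day 1 library with adipocyte transcripts (27.0 scaled CPM of Slc2a4). With that SE, a sizeable difference in Slc2a4 would not have been detectable.

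Most members went on rising under 5 µM despite the deficit. Against untreated day 0 cells, 4 members were higher on day 1 at 5 µM (25.8% of all genes) and 1, Eno3, was lower (24.1% of all genes), a comparison in which dose and day change together. Of the 4, Pgam2 (0.91 ± 0.24, adjusted p = 0.0019) was lost with a pseudocount of 5 (adjusted p = 0.11). Without both extra-transcript libraries 6 members were called here, Mb being the added one, at levels where no log2 change is given. From day 1 to 2 at 5 µM, 7 members rose (12.9% of all genes), and from day 2 to 4, 8 rose (21.0% of all genes). Without both extra-transcript libraries these counts were 8 and 9, with Slc2a4 added from day 1 to 2 (1.23, adjusted p = 0.031) and from day 2 to 4 (1.03, adjusted p = 0.023). With quantile normalization Eno3 was not called from day 1 to 2 (0.19, adjusted p = 0.10). From day 2 to 4 Ckm rose by 1.36 ± 0.13, Mb by 3.30 ± 0.19, Pygm by 1.78 ± 0.18, Pgam2 by 1.54 ± 0.24, Pfkm by 1.01 ± 0.09, Ckmt2 by 1.58 ± 0.28 and Eno3 by 0.38 ± 0.09. Ampd1 rose by 1.02 ± 0.32 (adjusted p = 0.0098), a call lost with edgeR (adjusted p = 0.23), DESeq2 (adjusted p = 0.11), a pseudocount of 0.1 (adjusted p = 0.11) and the compared groups alone (adjusted p = 0.058), and without replicate 2 of day 2 (adjusted p = 0.095) or replicate 3 of day 4 (adjusted p = 0.070), and Phka1 did not pass (−0.09 ± 0.16, adjusted p = 0.70). Of the change in the 5 µM effect from day 1 to 2, 2 members passed upward (3.04% of all genes) and 2 downward (2.76%), and from day 2 to 4, 2 passed downward (11.2%). Without both extra-transcript libraries 5 passed from day 1 to 2, again with Mb added. For the counts without these libraries in this paragraph, the shares over all genes in that setting are not given here.

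At 2 µM the members leaned lower by much less. On day 1, 3 fell (1.48% of all genes), on day 2, 1 fell (0.247%) and on day 4, 3 fell (3.74%). Medians over the members were −0.31, −0.15 and −0.36, with all-gene medians near 0. With both libraries that carry extra transcripts left out, 1 member was called on day 1, 1 on day 2 and 5 on day 4.

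On day 1 Ckm at 2 µM was at 27.9, 34.2 and 35.5 scaled CPM against 43.2 to 68.1 in control, a log2 change of −0.77 ± 0.13 (adjusted p = 4.4e-04) and 57.1% of control. Pygm was at 5.53, 9.27 and 6.98 against 10.9 to 13.8 (−0.70 ± 0.18, adjusted p = 0.035), and Eno3 at 247, 282 and 312 against 339 to 416 (−0.39 ± 0.09, adjusted p = 0.016). The last 2 calls were lost with both extra-transcript libraries left out (adjusted p = 0.072 and 0.11), while that of Ckm held. Leaving out just the 2 µM library gave adjusted p = 0.27 and 0.18. That of Pygm was lost as well without control replicate 1, 2 or 3 (adjusted p = 0.091, 0.052 and 0.17) or 2 µM replicate 3 (adjusted p = 0.068), and that of Eno3 without control replicate 2 (adjusted p = 0.15). With the spread taken from the compared groups alone, none of the 3 passed (adjusted p = 0.34, 0.39 and 0.38).

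On day 2 Eno3 was the single member called, at 581, 598 and 594 against 781 to 831 (−0.45 ± 0.09, adjusted p = 0.011). Its groups lay far apart, yet the adjusted p was 0.057 to 0.087 when replicate 1 or 3 of control or any 2 µM replicate was left out. On day 4 Pfkm fell to 493, 503 and 507 from 639.5 to 691 (−0.40 ± 0.09, adjusted p = 0.0038), and Eno3 to 1119, 1146 and 1176 from 1275 to 1662 (−0.34 ± 0.09, adjusted p = 0.014). Eno3 was not called there without control replicate 2 (adjusted p = 0.12) or 2 µM replicate 1 (adjusted p = 0.061), nor with quantile normalization (−0.20, adjusted p = 0.11). Phka1 fell narrowly, at 23.4, 32.1 and 25.8 against 37.2 to 40.0 (−0.49 ± 0.16, adjusted p = 0.049), a call lost without control replicate 1, 2 or 3 (adjusted p = 0.095, 0.088 and 0.12) or 2 µM replicate 1 or 3 (adjusted p = 0.21 and 0.13).

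Ckm on day 4 fell just short at 2 µM, at 675, 728 and 707 against 851 to 969 (−0.38 ± 0.13, adjusted p = 0.0504). It passed under 9 alternatives, among them edgeR (adjusted p = 0.041), DESeq2 (adjusted p = 0.012), median-of-ratios scaling (adjusted p = 0.040) and the compared groups alone (adjusted p = 0.042). Ckm also passed without both extra-transcript libraries (adjusted p = 0.033), as did Pygm (−0.42, adjusted p = 0.037), which was at 311, 342 and 322 against 419 to 442. Mb on day 4 was at 597, 641 and 621 against 668 to 940.4, with no overlap and no call (−0.34 ± 0.19, adjusted p = 0.29). In percent of control on day 4, Ckm stood at 76.6%, Mb at 78.0%, Pygm at 74.9%, Pfkm at 76.0%, Eno3 at 78.5%, Phka1 at 70.8% and Pgam2 at 84.3%.

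Slc2a4 on day 1 at 2 µM was at 27.0, 0.0483 and 0 scaled CPM. The high library is the one with adipocyte transcripts, where Adipoq stood at 158 scaled CPM and Fabp4 at 2529, and adipocytes are known to express Slc2a4. The difference from control did not pass (1.28 ± 0.67, adjusted p = 0.44) and was −0.31 without that library, while DESeq2 called it with the library in (4.97, adjusted p = 0.043). The same library held 669 of the 670 Slc2a4 reads of its group.

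Compared with 2 µM, 5 µM lowered 6 members on each day, where 4.25%, 8.13% and 24.8% of all genes were lower on days 1, 2 and 4. On day 4 the log2 differences were −1.09 ± 0.13 for Ckm, −2.24 ± 0.19 for Mb, −1.51 ± 0.18 for Pygm, −1.58 ± 0.09 for Eno3, −1.41 ± 0.09 for Pfkm and −0.64 ± 0.16 for Phka1 (adjusted p = 9.5e-09, 7.5e-12, 2.5e-08, 1.2e-15, 1.6e-14 and 0.0013). Pgam2 did not pass on day 4 (−0.32 ± 0.24, adjusted p = 0.28) or day 2 (−0.45 ± 0.24, adjusted p = 0.25), but it did on both with the spread of the compared groups alone (adjusted p = 0.014 and 0.041). On day 1 the call of Eno3 was at the margin (−0.30 ± 0.09, adjusted p = 0.049) and was lost without both extra-transcript libraries (adjusted p = 0.10). It was lost too without 2 µM replicate 2 or 3 (adjusted p = 0.097 and 0.24) or 5 µM replicate 3 (adjusted p = 0.25). On day 2 that of Phka1 (−0.55 ± 0.16, adjusted p = 0.019) was lost without 2 µM replicate 1 or 3 (adjusted p = 0.077 and 0.14) or 5 µM replicate 2 (adjusted p = 0.12). With the spread of the compared groups alone, only Ckm was called on day 1. These comparisons use the same 5 µM libraries as those against control, so the 2 sets of values are not independent.

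Levels of the partner forms were set beside those of the muscle forms. In control cells from day 0 to day 4, 7 of 12 measured partners fell and 3 rose, with a median of −0.73, where 29.5% of all genes fell and 30.3% rose. At 5 µM on day 4, 6 of 12 were higher than control and 3 lower, with a median of 0.51 against −0.01 over all genes, of which 27.3% were higher and 28.6% lower. Ckmt1 and Pygl were below the filter for these 12. Reads of near-identical copies, such as Pgam1 and its processed copies or Eno1, may have been split or shared between genes by a counting step that is not given in the sources used here.

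**Figure D3:**
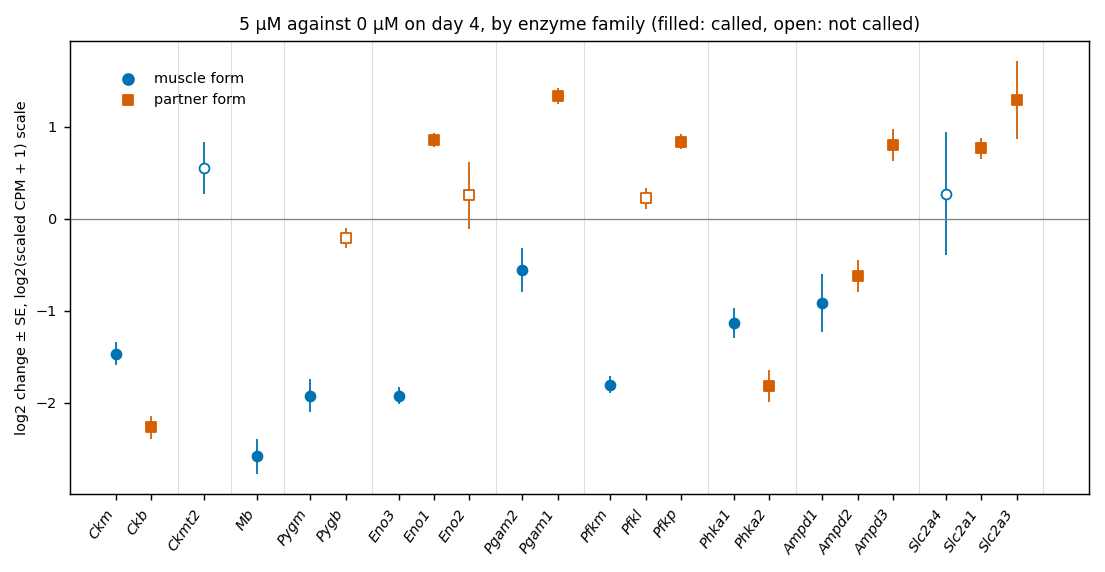
Log2 change at 5 µM against 0 µM on day 4 (vertical axis, log2(scaled CPM + 1) scale, bars 1 SE from limma, 3 libraries per group) for each muscle form (circles) and its measured partners (squares), grouped by enzyme family. Filled symbols passed the test. In the enolase, mutase and phosphofructokinase families the muscle form is below 0 and a partner above it (Eno3 −1.92 and Eno1 0.85), whereas in the creatine kinase and phosphorylase kinase families both forms are below 0.

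Eno1, the enolase of growing cells, was at 1311, 1469.9 and 1374 scaled CPM at 5 µM on day 4 against 745, 839 and 724 in control (0.85 ± 0.08, adjusted p = 2.0e-11), and it had been at 1728 to 1978 in undifferentiated cells. Pgam1 was at 553, 686 and 686 against 259, 274 and 228 (1.33 ± 0.09, adjusted p = 1.6e-14). Pfkp was at 128, 129 and 126 against 63.1, 78.0 and 73.0 (0.84 ± 0.08, adjusted p = 2.0e-10). The glucose transporter Slc2a1, common in growing cells, was at 83.9, 86.8 and 77.5 against 50.8, 49.1 and 45.0 (0.76 ± 0.11, adjusted p = 5.0e-07). All 4 partners had fallen during control differentiation and were higher in every treated library than in any control library. Ampd3 (0.80, adjusted p = 2.2e-04) and Slc2a3 (1.29, adjusted p = 0.010) were also higher, the latter from 0.361 to 2.37 scaled CPM. Pfkl (0.22, adjusted p = 0.10), Eno2 (0.25, adjusted p = 0.58) and Pygb (−0.21, adjusted p = 0.10) did not pass.

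Ckb and Phka2 behaved differently from these partners. Ckb, the brain-type creatine kinase, rose in control from 30.7 to 48.8 scaled CPM on day 0 to 194, 249.7 and 179 on day 4, and was at 44.3, 43.0 and 38.5 at 5 µM (−2.27 ± 0.13, adjusted p = 2.2e-16). Phka2 was at 22.5, 15.4 and 11.4 against 61.0, 60.9 and 53.8 (−1.82 ± 0.17, adjusted p = 7.9e-11), and it too had risen in control, from 13.8 to 19.9 on day 0. Ampd2 was lower as well (−0.63, adjusted p = 0.0025). So Ckb stood at 20.2% of control on day 4 where Ckm stood at 36.0%.

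Shares of the family's reads set the forms side by side within each library, without correction for transcript length. Of Pfkm, Pfkl and Pfkp reads, Pfkm took 85.0, 82.7 and 83.5% in control on day 4 and 50.9, 47.4 and 49.3% at 5 µM. The share of Eno3 among the enolases was 65.9, 66.1 and 63.5% against 23.4, 20.3 and 20.9%, and day 0 cells had 19.4 to 21.2%. That of Pgam2 in its pair was 38.5, 40.1 and 37.4% against 18.0, 13.5 and 12.6%. In each of these the treated libraries lay far below the controls, and the enolase share at 5 µM overlapped that of day 0.

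Pygm reached 92.1, 90.3 and 91.4% of phosphorylase reads in control on day 4 and 79.6, 75.7 and 73.4% at 5 µM, after 71.8 to 73.9% against 37.8 to 38.9% on day 2. Ckm took 34.5, 26.9 and 35.6% of Ckm and Ckb reads on day 1 in control and 14.7, 13.7 and 14.4% at 5 µM. On day 4 this order was turned, with 81.4, 78.9 and 84.4% in control and 88.7, 88.5 and 89.1% at 5 µM. Phka1 also took more of its pair at 5 µM on day 4 (43.2, 51.4 and 60.0% against 37.9, 38.2 and 42.6%), but its course in control differed. The control share of Phka1 had been higher on day 0, at 48.1, 50.8 and 60.5%, which the 5 µM libraries overlapped. That of Ckm had been at most 0.771% on day 0. Ampd1 took 18.5, 16.5 and 9.87% of AMP deaminase reads in control and 7.48, 4.58 and 9.00% at 5 µM, and the shares of Slc2a4 overlapped (2.84 to 10.7% against 1.64 to 7.84%).

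Of 25 such comparisons of 5 with 0 µM over families and days, 17 had groups that did not overlap. Among these 17 the share was higher at 5 µM for Ckm and Phka1 on day 4 and lower in all the others. No such count was made over other gene families. With 3 libraries against 3, an exact two-sided permutation test cannot go below p = 0.10, which these 17 reached (0.147 after Benjamini-Hochberg adjustment over the 25), so the values themselves are the result. Shares are of reads and not per length. Per base of the longest coding transcript, the mean share of Pgam2 on day 4 was 57.1% in control and 26.6% at 5 µM. That of Ckm was 70.5 and 80.9%.

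**Figure D4:**
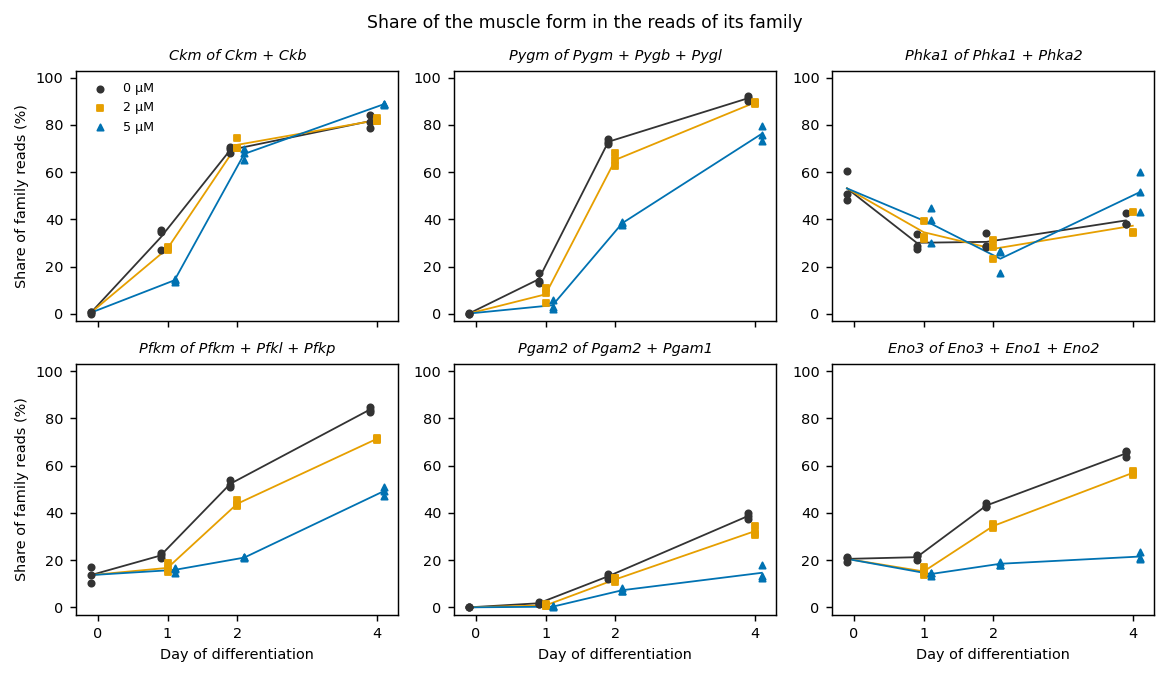
Share of the muscle form in the reads of its family (vertical axis, percent) by day of differentiation in 6 families, with each library as a point (circles 0 µM, squares 2 µM, triangles 5 µM) and lines through group means. At 5 µM on day 4 the shares of Pfkm, Pgam2 and Eno3 are below those of control, at means of 49.2, 14.7 and 21.6% against 83.7, 38.7 and 65.2%, while that of Ckm is above (88.8 against 81.6%).

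Other genes of the same pathways were taken from lists by role. The counts below stand beside 30.3% of all genes that rose and 29.5% that fell in control from day 0 to day 4, and 27.3% higher and 28.6% lower at 5 µM on day 4. Of 12 measured glycogen genes, 9 rose during control differentiation (median 1.30), among them the targeting subunit Ppp1r3a (3.63), laforin Epm2a (2.67) and the kinase subunit Phkb (2.25). At 5 µM on day 4, 6 were lower and 2 higher (median −0.29). Glycogen synthase Gys1 was at 25.6 to 35.6 scaled CPM against 183 to 218 (−2.71, adjusted p = 4.8e-18), and Phkb at 23.4 to 30.3 against 163 to 189.5 (−2.68, adjusted p = 3.3e-19). Epm2a was lower too (−1.79, adjusted p = 6.0e-05). Those that rose were the UDP-glucose enzyme Ugp2, at 569 to 598 against 214 to 275 (1.23, adjusted p = 1.7e-13), and the glycogen-binding Stbd1 (1.17, adjusted p = 3.7e-12). Phkb is the gene whose profile over the 30 libraries was most like that of Phka1.

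Of 9 creatine and adenylate genes, 4 rose and 3 fell in control and 4 were higher and 4 lower at 5 µM on day 4 (medians −0.02 and −0.07). Both enzymes of creatine synthesis fell, Gamt to 14.6 to 17.1 from 67.3 to 99.2 scaled CPM (−2.30, adjusted p = 1.0e-13) and Gatm to 75.9 to 85.7 from 284 to 319.9 (−1.87, adjusted p = 3.7e-16). The muscle adenylosuccinate synthase Adssl1 fell (−1.41, adjusted p = 1.1e-09), while its counterpart of other tissues, Adss, rose (1.16, adjusted p = 1.0e-10), as did the adenylate kinase Ak4 (1.24, adjusted p = 2.8e-05). In control cells Adssl1 had risen (3.58) and Adss had fallen (−2.63).

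Among 15 glycolysis and lactate genes without a muscle form among the members, 5 were higher and 6 lower at 5 µM on day 4 (median −0.22), and 6 rose and 5 fell in control (median −0.13). The lactate carrier Slc16a1 was at 252 to 277 against 73.5 to 86.8 scaled CPM (1.73, adjusted p = 8.3e-19), Hk1 at 227 to 244 against 127 to 137 (0.83, adjusted p = 1.1e-10) and Ldha rose by 0.55 (adjusted p = 1.5e-06). The other lactate carrier, Slc16a3, fell (−1.35, adjusted p = 2.9e-07) and so did hexokinase Hk2 (−0.77, adjusted p = 5.2e-05). Ldhb fell narrowly (−0.77, adjusted p = 0.038), and its call was lost without control replicate 1 or 3 (adjusted p = 0.069 and 0.11) or treated replicate 2 or 3 (adjusted p = 0.077 and 0.12).

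For glucose uptake, 2 of 7 genes were higher and 3 lower at 5 µM on day 4 (median 0.07). The Rab regulator Tbc1d1 fell to 112 to 133 from 255 to 267 scaled CPM (−1.11, adjusted p = 3.4e-12), while the insulin receptor substrate Irs1 rose (1.34, adjusted p = 1.7e-10). Of 11 fatty acid genes, 7 rose in control and 2 were higher and 4 lower at 5 µM (median −0.25). The fatty acid transporter Cd36 fell to 11.9 to 14.8 from 106 to 128 (−3.01, adjusted p = 0.0067) and the dehydrogenase Acadvl fell (−1.36, adjusted p = 1.9e-10). Lipoprotein lipase Lpl was higher (1.79, adjusted p = 0.027), a call lost without control replicate 2 or 3 (adjusted p = 0.086 and 0.054) or treated replicate 1 or 3 (adjusted p = 0.055 and 0.075). Of 10 measured regulators, 3 were higher and 2 lower at 5 µM. Muscle-type AMP kinase subunit Prkag3 fell from 85.8 to 112 to 28.3 to 38.7 (−1.54, adjusted p = 8.7e-05) and Prkab2 fell (−1.01, adjusted p = 1.2e-06), while Prkab1 (1.00, adjusted p = 4.3e-07) and Prkaa1 (0.83, adjusted p = 2.4e-09) rose. At 2 µM on day 4, where 3.74% of all genes were lower and 5.11% higher, 2 of 12 glycogen genes were lower, Phkb (−0.88, adjusted p = 3.0e-06) and Gys1 (−0.56, adjusted p = 0.0047), and 2 of 15 glycolysis and lactate genes were higher, Slc16a1 (0.73, adjusted p = 5.1e-08) and Hk1 (0.32, adjusted p = 0.0096). Of the creatine and adenylate genes, Adss was higher (0.59, adjusted p = 4.1e-04) and Gatm lower (−0.35, adjusted p = 0.033).

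The members were not equally alike in profile. Over the 30 libraries, Pearson's r of log2 values between pairs of members ranged from 0.253 (Phka1 with Slc2a4) to 0.980 (Mb with Pfkm), as a description of libraries that share days, doses and depth. Outside the set, the genes most like the mean of the members were Myh8 (r = 0.985), a perinatal myosin heavy chain, the muscle transcription factor Mef2c (0.981), Adssl1 (0.979), the Z-disc gene Actn2 (0.979) and Dhrs7c (0.976), among 10974 genes with a group mean of at least 5 scaled CPM. For single members the 2 most alike were Tnnc2 (0.997) and Lmod3 (0.996) for Ckm, Myh8 (0.986) and Mef2c (0.985) for Mb, and Atp2a1 (0.993) and Myl6b (0.990) for Pygm. They were Smpx (0.983) and Smim5 (0.982) for Pgam2, Fam171a2 (0.984) and Tpm2 (0.982) for Pfkm, and Mpi (0.973) and Tpm1 (0.970) for Eno3. Likeness was lower for Ampd1 (Grhl3 and Adprhl1, both 0.959), Phka1 (Phkb 0.920, Ncam1 0.901), Ckmt2 (Prr32 0.919, Tnfrsf19 0.902) and Slc2a4 (Gpd1 0.865, Adipor2 0.851). Without both extra-transcript libraries the values for Slc2a4 were 0.789 and 0.764, a check chosen after seeing the data.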

How the data were processed

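Per the labels' protocols, C2C12 RNA came from a TRIzol extraction and was sequenced from TruSeq RNA libraries. The deposited table holds gene signal values that the authors named CPM in its header. Its columns have unequal sums, 892246 to 1079916, so a further scaling was applied, and how is not given in the sources used here, nor are the genome build, aligner, counting and strand. Every value was a whole multiple of what 1 read is worth (100% within 0.02 read), which gave the reads per library.

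Groups came from the labels. The main test was limma 3.58.1 (R 4.3.3) on log2(value + 1), with 1 mean per group over all 30 libraries, a variance trend, 20 residual degrees of freedom and Benjamini-Hochberg adjustment over 12946 genes. No log2 change is given where both groups have means below 1. Alternatives were other filters and pseudocounts, median-of-ratios and quantile scaling, a robust prior, the compared groups alone, a replicate block, libraries left out, and edgeR 4.0.16 and DESeq2 1.42.0 on recovered reads. Same-numbered replicates did not deviate together (correlations −0.226 to 0.128; in 0 of 16 comparisons were all above 0.1), so they were not paired. Levels per kilobase used GENCODE transcripts on GRCm38, and promoters came from RefSeq. Figures were drawn with matplotlib 3.10.9.

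Named genes were all members and partners, up to 3 called genes per list and direction with the largest changes in 5 against 0 µM on day 4 and in control day 4 against day 0, and the genes most alike in profile. Some genes that this rule names are not reported here. Genes of the lists named for 2 µM on day 4 were already named by that rule. The members and lists were chosen with earlier results of these data known.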

Additional observations from a re-analysis of the deposited data

Results flagged for a closer look

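In 4 members the effect of 5 µM against control differed between days, by limma's test of the difference itself with Benjamini-Hochberg adjustment over 12946 genes and 3 libraries per group. From day 1 to day 2 the log2 change of Ckm moved by 1.06 (adjusted p = 1.0e-04) and that of Pgam2 by 1.38 (adjusted p = 0.0089), both towards control. Over the same days that of Eno3 moved by −0.77 (adjusted p = 1.0e-04) and that of Pfkm by −0.68 (adjusted p = 5.2e-04), away from control. From day 2 to day 4 Eno3 moved by a further −0.46 (adjusted p = 0.0088) and Pfkm by −0.44 (adjusted p = 0.012). Day 1 and day 4 values share the day 2 libraries between these tests. The Pgam2 call was lost with a pseudocount of 0.1 (adjusted p = 0.068) or 5 (adjusted p = 0.17), and its day 1 mean at 5 µM rests on 109 reads.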

How the results depend on the processing

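Of 2890 log2 changes of members recomputed under the alternatives, 2725 kept their direction and side of the threshold, 96 lost a call, 37 gained one and 32 changed sign, all 32 in comparisons that had not passed. No cause of these shifts was tested. Of 1488 such values of pathway genes, chosen for this after seeing the data, 1447 kept both, 32 lost a call, 6 gained one and 3 changed sign. Ckmt2, Ampd1 and Slc2a4 rest on few reads in most groups.

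The number of members called at 2 against 0 µM on day 1 (3) was 1 without both extra-transcript libraries, 0 with the compared groups alone and 1 to 3 with a replicate left out. On day 2 (1) it was 2 with the compared groups alone and 0 to 1 with a replicate left out. On day 4 (3) it was 5 without both extra-transcript libraries, 5 with a pseudocount of 5 and 1 to 3 with a replicate left out. For 5 against 2 µM on day 1 (6) it was 1 with the compared groups alone. Shares over all genes under these alternatives are not given here.

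With the replicate block, the members called at 5 against 0 µM on day 4 numbered 7 instead of 8, since Pgam2 was lost (−0.55, adjusted p = 0.057 by limma). At 2 against 0 µM on day 4 Phka1 was lost (adjusted p = 0.056) and Ckm gained (−0.38, adjusted p = 0.047). The block changed no other call of a member.

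The change of the 5 µM effect on Pgam2 from day 2 to 4 was −0.0353 with DESeq2, −0.0203 with edgeR, −0.0352 with median-of-ratios scaling, −0.0203 with a pseudocount of 5, −0.0551 with quantile normalization and −0.10 to 0.11 with a replicate left out. That on Pygm from day 1 to 2 was 0.0835 with DESeq2, 0.0876 with edgeR, 0.20 without both extra-transcript libraries, 0.20 with a pseudocount of 0.1 and −0.36 to 0.20 with a replicate left out, and from day 2 to 4 −0.0258 to 0.188. With a pseudocount of 5 the Pygm value from day 1 to 2 was −0.73 and passed (adjusted p = 0.010 by limma). Slc2a4 at 2 against 0 µM on day 1 was −0.31 without both extra-transcript libraries, and −0.31 to 2.10 with a replicate left out. With quantile normalization Slc2a4 was 0.0285 at 5 against 0 µM on day 2 and 0.15 at 5 against 2 µM on day 4. With a replicate left out, Slc2a4 ran from −0.44 to 0.37 in the latter, from −0.0690 to 0.745 at 5 against 0 µM on day 4 and from −2.18 to 0.23 at 5 against 2 µM on day 1. Ampd1 on day 2 ran from −0.12 to 0.33 at 2 against 0 µM, from −0.0319 to 0.507 at 5 against 0 µM and from −0.20 to 0.34 at 5 against 2 µM. Ckmt2 at 5 against 2 µM on day 4 ran from −0.0334 to 0.520, and Phka1 at 2 against 0 µM on day 2 from −0.236 to 0.0268. Among pathway genes Eno2 at 5 against 0 µM on day 4 ran from −0.10 to 0.56, and Ampd3 in control from day 0 to day 4 from −0.0985 to 0.0221, including 0.00578 without day 0 replicate 3.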
